A study of Mus musculus with 9 samples.

Results

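The genes for potassium channels and voltage-gated sodium channels were followed in cultured mouse myoblasts that overexpressed Pax7 or Pax3. Members were the genes whose symbol starts with Kcn plus a letter, or is Scn plus a number and a or b, and that had a probe set annotated to 1 symbol alone. The rule found 103 genes among 19661 tested, and where a gene had several probe sets the one brightest on average across all 9 arrays stood for it. The symbols cover pore-forming subunits, their accessory subunits and 3 noncoding RNAs named after channel genes (Kcnd3os, Kcnmb4os1 and Kcnmb4os2). The study held 3 groups of myoblasts from skeletal muscle of Balb/c background, with 3 arrays each: cells with Pax7 overexpression, cells with Pax3 overexpression, and control cells with an empty vector (CTAP). The culture medium, the same for each group, was Ham's F10 to which 20% FBS and 4 ng/ml bFGF had been added. The labels name no promoter for the constructs and do not say whether the cells were clones or pools. RNA was isolated in triplicate, and nothing states that the triplicates were separate cultures. The p-values below therefore reflect the scatter of these triplicates alone, which may be technical.

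Potassium channels let potassium ions leave the cell and so set the resting potential and end action potentials, and voltage-gated sodium channels carry the fast inward current that starts them. A pore is built from several subunits in potassium channels and from a single long chain in sodium channels, and smaller accessory subunits change its gating and its place in the membrane. In muscle precursors, potassium channels are known for their part in proliferation and, in human myoblasts, for a hyperpolarisation before fusion that needs the ether-a-go-go channel KCNH1 and the inward rectifier KCNJ2. Pax3 and Pax7, which muscle progenitors use, are transcription factors that bind DNA through a paired domain and a homeodomain.

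The promoter windows of 5 channel genes are shown because these genes had large changes and a single window each in the RefSeq table (build GRCm38.p6), with 250 bases before and 50 after the annotated start. Kcnt2, Kcnn4 and Kcnk1 were higher, and Kcnk13 and Kcnh5 lower, in the Pax arrays than in control arrays. Capitals mark GTCAC, the core of paired-domain sites, or GTGAC on the other strand.
Kcnt2, chr1:140245468-140245767, plus strand: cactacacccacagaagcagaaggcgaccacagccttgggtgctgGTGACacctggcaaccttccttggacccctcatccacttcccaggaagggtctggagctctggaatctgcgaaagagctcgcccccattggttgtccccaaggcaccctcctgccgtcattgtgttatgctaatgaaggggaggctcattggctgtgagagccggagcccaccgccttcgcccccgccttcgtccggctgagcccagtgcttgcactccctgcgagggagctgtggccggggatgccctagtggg
Kcnn4, chr7:24370013-24370312, plus strand: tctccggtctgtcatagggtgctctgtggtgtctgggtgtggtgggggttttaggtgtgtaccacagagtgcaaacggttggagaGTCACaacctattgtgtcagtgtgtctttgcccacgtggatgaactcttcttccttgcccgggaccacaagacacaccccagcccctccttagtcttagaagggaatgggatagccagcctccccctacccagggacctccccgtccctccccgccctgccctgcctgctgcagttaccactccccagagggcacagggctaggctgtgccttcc
Kcnk1, chr8:125994852-125995151, plus strand: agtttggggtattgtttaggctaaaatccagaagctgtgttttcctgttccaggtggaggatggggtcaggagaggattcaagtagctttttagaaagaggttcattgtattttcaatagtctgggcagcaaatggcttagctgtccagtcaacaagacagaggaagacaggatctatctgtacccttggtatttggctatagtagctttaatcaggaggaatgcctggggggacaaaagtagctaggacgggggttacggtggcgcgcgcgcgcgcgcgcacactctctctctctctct
Kcnk13, chr12:99964249-99964548, plus strand: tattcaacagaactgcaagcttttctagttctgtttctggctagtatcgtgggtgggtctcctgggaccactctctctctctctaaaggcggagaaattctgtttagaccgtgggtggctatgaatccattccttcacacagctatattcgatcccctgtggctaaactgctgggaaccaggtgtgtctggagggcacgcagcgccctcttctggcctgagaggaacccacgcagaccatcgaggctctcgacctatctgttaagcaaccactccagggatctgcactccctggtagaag
Kcnh5, chr12:75177283-75177582, minus strand: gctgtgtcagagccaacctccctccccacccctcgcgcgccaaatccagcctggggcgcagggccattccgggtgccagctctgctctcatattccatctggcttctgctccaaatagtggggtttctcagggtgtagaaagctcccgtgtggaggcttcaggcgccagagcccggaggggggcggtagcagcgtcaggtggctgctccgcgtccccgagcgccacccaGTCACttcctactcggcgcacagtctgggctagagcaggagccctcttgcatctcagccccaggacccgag
The letters GTCAC on either strand stood in the windows of Kcnt2, Kcnn4 and Kcnh5 and not in those of Kcnk1 and Kcnk13. Of the 20 channel genes described array by array below, 18 were in the table, with 26 windows, and 12 of these windows held GTCAC. Over the 106 windows of 79 channel genes the share was 50%, and over all 32851 windows of the table it was 45.6%. Palindromic homeodomain sites, in which a pair of TAAT cores face each other across 2 or 3 bases, were in 0 of the 26 windows, and in 0.39% (2 bases) and 0.487% (3 bases) of all windows. A match is a description of letters and not a site.

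Within each group, the correlation r between arrays was 0.9971 to 0.999 (over probe sets). It was 0.994 to 0.9949 between Pax7 and Pax3 arrays and 0.9708 to 0.9802 between either of them and control arrays. As a check of the labels, Pax7 had log2 intensities of 12.28 in Pax7, 8.18 in Pax3 and 10.51 in control arrays, and Pax3 had 6.82, 11.05 and 5.83 in the same order. The Y-linked gene Uty stood at 3.77 in Pax7 arrays and 3.85 in Pax3 arrays, against 9.27 in control arrays, and Xist, transcribed from the inactive X chromosome, at 11.72 and 11.96 against 4.77. Both comparisons against control were thus also comparisons between arrays that differed in sex-linked transcripts, and the origin of the cells and the overexpressed factor cannot be told apart there. All 7 of the myoblast markers checked (Myod1, Myf5, Pax7, Des, Cdh15, Itga7, Chrna1) were above the background level in use below, with 2 higher and 4 lower for Pax7, and 1 higher and 4 lower for Pax3, against control. Myf5 was higher by 2.02 and 1.97 log2 units in Pax7 and Pax3 arrays, and Des, the muscle intermediate filament, stood at -1.33 and -0.52, Cdh15 at -0.65 and -0.73 and Itga7 at -0.70 and -0.47, with the gene for Pax7 as given above. Myod1 stood at 12.18 in Pax7, 12.50 in Pax3 and 12.62 in control arrays. Values are log2 intensities, so a difference of 1 is a doubling. A gene was called changed when limma, a linear model fitted over all 19661 genes and 9 arrays, gave an adjusted p (Benjamini-Hochberg) under 0.05.

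Many of the channel genes lay near background. The background level was set at 5.531, the 95th percentile of the mean log2 intensity of 1186 olfactory and vomeronasal receptor genes, which sensory neurons use and muscle cells are taken not to. In 47 of 103 channel genes (45.6%), all 3 group means were at or below this level, against 29% of all genes tested (5695 genes). With the 90th percentile (5.112) 28 genes were near background, and with the 99th (6.305) there were 72, with 31 genes above it. Probe sets differ in brightness, so a level near background bounds the signal but does not order genes by abundance. In bulk RNA, fewer cells of a type and less RNA per cell cannot be told apart.

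**Figure D1:**
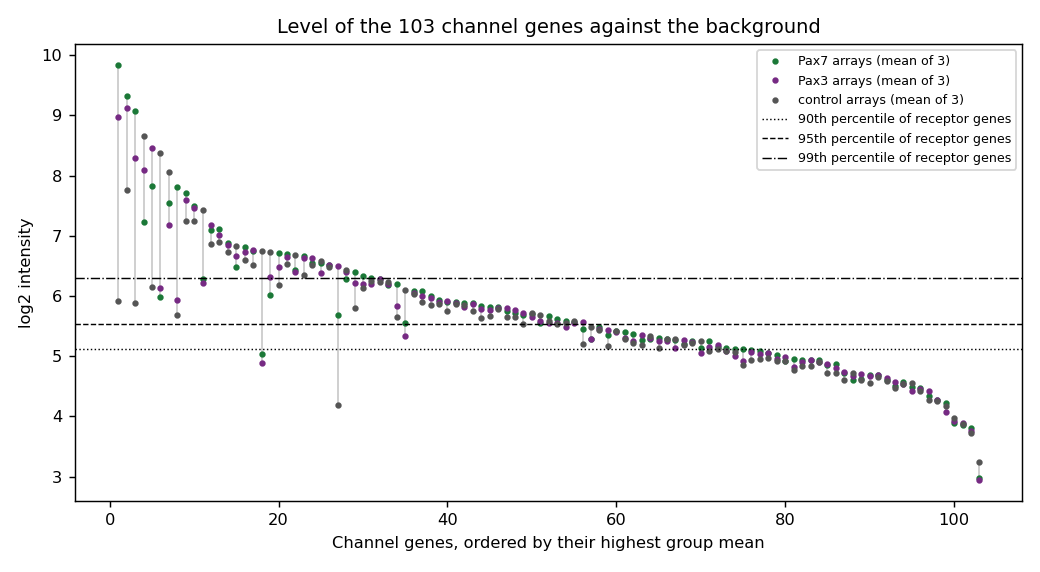
Mean log2 intensity of each of the 103 channel genes in Pax7, Pax3 and control arrays (points, n = 3 arrays each), ordered by the highest group mean, with lines at the 90th, 95th and 99th percentiles of the receptor genes. The widest gaps between groups are among the genes on the left, and the 47 genes under the 95th percentile line (5.531) have group means that nearly coincide. The ordering favours this, since a strong rise in any group also moves a gene to the left and above the line.

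Near background lay 6 of 8 pore-forming sodium channel genes (Scn1a, Scn3a, Scn7a, Scn8a, Scn10a and Scn11a), 9 of 15 inward rectifiers, 9 of 13 accessory subunits of voltage-gated potassium channels and 13 of 35 of their pore-forming subunits. Kcnj2, whose human counterpart acts before myoblast fusion, stood at 3.86 in Pax7, 3.89 in Pax3 and 3.87 in control arrays. Kcnh1 was close to the level, at 5.58 in Pax7, 5.56 in Pax3 and 5.58 in control arrays, and did not pass in any comparison (adjusted p = 0.992 for Pax7 against control, 0.747 for Pax3 against control and 0.821 for Pax7 against Pax3). The large-conductance calcium-activated channel Kcnma1 stood at 4.85 in Pax7, 4.88 in Pax3 and 4.72 in control arrays. With these probe sets, the signals of Kcnj2 and Kcnma1 did not stand above those of the receptor genes.

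In Pax7-overexpressing myoblasts, a small number of channel genes changed strongly and most did not pass. The sodium channel accessory subunit Scn3b was 15.2-fold higher than in control cells, the M-type potassium channel Kcnq5 9.18-fold higher and the tandem-pore-domain channel Kcnk1 4.38-fold higher. Control arrays of these genes lay above the background level of 5.531 but under the 99th percentile of the receptor genes (6.305). The halothane-inhibited channel Kcnk13 was 5.28-fold lower and the small-conductance calcium-activated channel Kcnn3 2.70-fold lower. For Kcnk13 it was the Pax7 arrays that lay between 5.531 and 6.305. The ether-a-go-go channel Kcnh5 was at least 2.32-fold lower, a bound taken against the background level because its Pax7 arrays lay under it. Of the 103 genes, 32 passed (31.1%), 21 higher and 11 lower, against 43.2% of all genes tested, and of the 32 genes 2 were near background. The shares in each direction were 20.4% higher and 10.7% lower, against 21.6% and 21.5% of all genes. After a second quantile normalisation the count was 14 higher and 14 lower. The higher count fell to 12 without control replicate 2 and to 13 without Pax7 replicate 3, with 10 lower in each case, and with array weights it was 33 higher and 11 lower. At least 1 log2 unit of change was seen in 10 genes (9.71%), 6 higher and 4 lower, against 6.58% of all genes (3.29% in each direction). In 49 genes (47.6%) the arrays of the groups did not overlap, against 55.5% of all genes. Tested against a minimum fold of 1.2 (limma's treat), 17 genes passed (16.5%), against 19.4% of all genes. Among genes with a mean over all 9 arrays above the background level, 51.9% of 54 channel genes were called, against 56.7% of 13656 genes.

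In Pax3-overexpressing myoblasts Scn3b was 8.31-fold, Kcnq5 5.35-fold and the calcium-binding accessory protein Kcnip3 4.97-fold higher than in control cells. Control arrays of these genes, too, lay between 5.531 and 6.305. The sodium-activated potassium channel Kcnt2 was at least 1.96-fold higher, its control arrays being under the background level. Kcnk13 was 4.73-fold and the cardiac repolarisation channel Kcnh2 2.34-fold lower, and Kcnh5 at least 2.32-fold lower. The Pax3 group means of Kcnk13 and Kcnh2, 6.14 and 6.21, also lay between 5.531 and 6.305. Of the 103 genes, 28 passed (27.2%), 16 higher and 12 lower, against 39.6% of all genes tested (19.8% higher and 19.7% lower), and 5 of the 28 were near background. At least 1 log2 unit of change was seen in 8 genes (7.77%), 5 higher and 3 lower, against 4.8% of all genes (2.29% higher and 2.51% lower). In 36 genes (35%) the arrays of the groups did not overlap, against 45.1% of all genes, and 11 genes (10.7%) passed treat, against 16.6%. Among genes with a mean over all 9 arrays above the background level, 38.9% of 54 channel genes were called, against 52.9% of 13656 genes. Both comparisons use the same control arrays: 14 genes (13.6%) were called higher in both and 10 (9.71%) lower in both, against 16.3% and 17.1% of all genes tested, and 0 were called in opposite directions, against 0.417% of all genes. The median log2 fold change over the 103 genes was 0.061 for Pax7 and 0.054 for Pax3 against control, beside 0.0274 and 0.0157 over all genes.

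**Figure D2:**
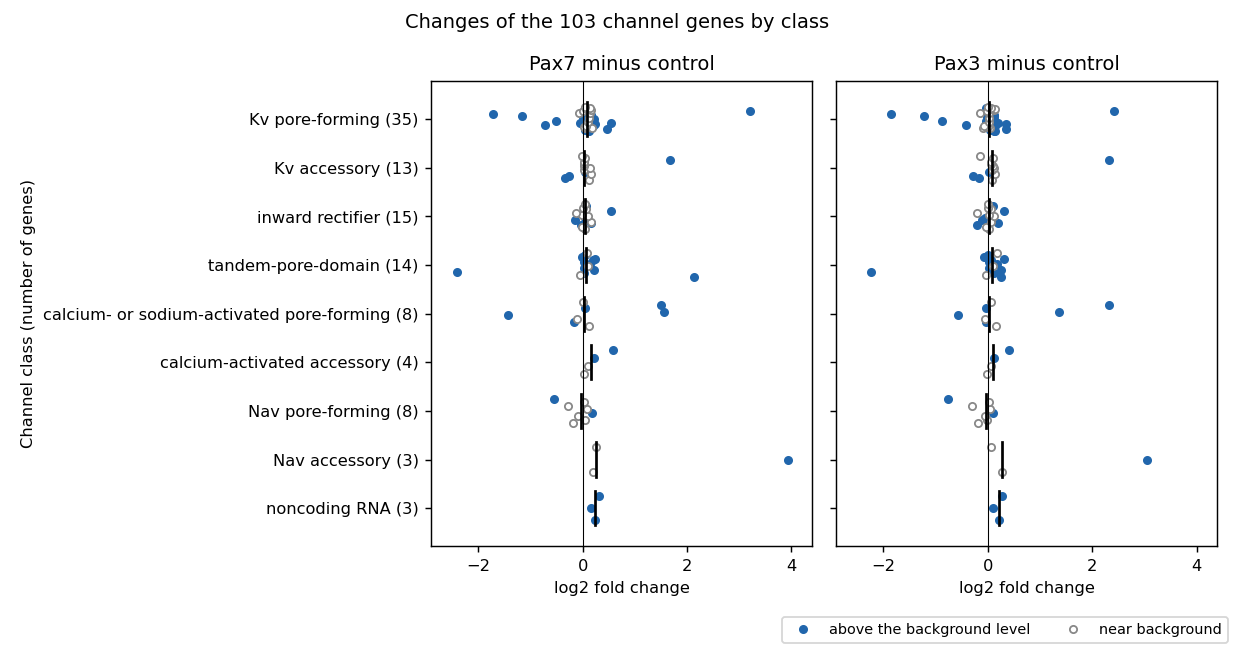
Log2 fold changes of the 103 channel genes against control, in Pax7 (left) and Pax3 arrays (right), by class, with black bars at the class medians and open circles for genes near background. Each class has a median between -0.03 and 0.27, and the points farthest from 0 are single genes such as Scn3b and Kcnk13.

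Sodium channel genes were few but held the largest change. Scn3b encodes an accessory beta subunit with an immunoglobulin-like domain that alters the gating of sodium channel pores. Its log2 intensity was 9.85, 9.88 and 9.80 in Pax7 arrays, 9.03, 9.00 and 8.87 in Pax3 arrays, and 5.91, 6.07 and 5.75 in control arrays. All Pax7 arrays were above all Pax3 arrays, and these were far above all control arrays. The control arrays of Scn3b were above the background level of 5.531 but under the 99th percentile of the receptor genes (6.305). The log2 fold change was 3.93 ± 0.0753 for Pax7 against control (SE, n = 3 per group, limma adjusted p = 1.77e-11), 3.05 ± 0.0753 for Pax3 against control (limma adjusted p = 1.69e-10) and 0.88 ± 0.0753 for Pax7 against Pax3 (limma adjusted p = 1.51e-05). The other accessory subunits measured, Scn2b and Scn4b, stayed near background, though Scn2b passed in Pax3 against control (0.27, limma adjusted p = 0.0126) and Scn4b in Pax7 against control (0.27, limma adjusted p = 0.0119).

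Of 8 pore-forming sodium channel genes, 0 were called higher and 2 lower in each comparison against control. The share, 25%, was below that of all genes, but 6 of the 8 were near background. Scn9a, a channel of peripheral sensory neurons, stood at 5.62, 5.43 and 5.61 in Pax7 arrays, 5.37, 5.41 and 5.23 in Pax3 arrays, and 5.91, 6.05 and 6.33 in control arrays. It was above the background level in all control arrays but not in all Pax7 arrays and in no Pax3 array. The log2 fold change of Scn9a was -0.55 ± 0.0986 for Pax7 and -0.76 ± 0.0986 for Pax3 against control (SE, n = 3 per group, limma adjusted p = 0.00085 and 8.18e-05), and its second, dimmer probe set also fell, by 0.42 and 0.40 log2 units. The other call was Scn7a, a sodium-sensing relative that is not opened by voltage, which lay far under the background level in every group. Scn2a, the brain sodium channel, did not pass with its brightest probe set (0.18 and 0.10 for Pax7 and Pax3 against control, limma adjusted p = 0.0544 and 0.295). Of its 14 probe sets, 0 were called higher and 4 lower for Pax7 against control, each of the 4 near background.

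**Figure D3:**
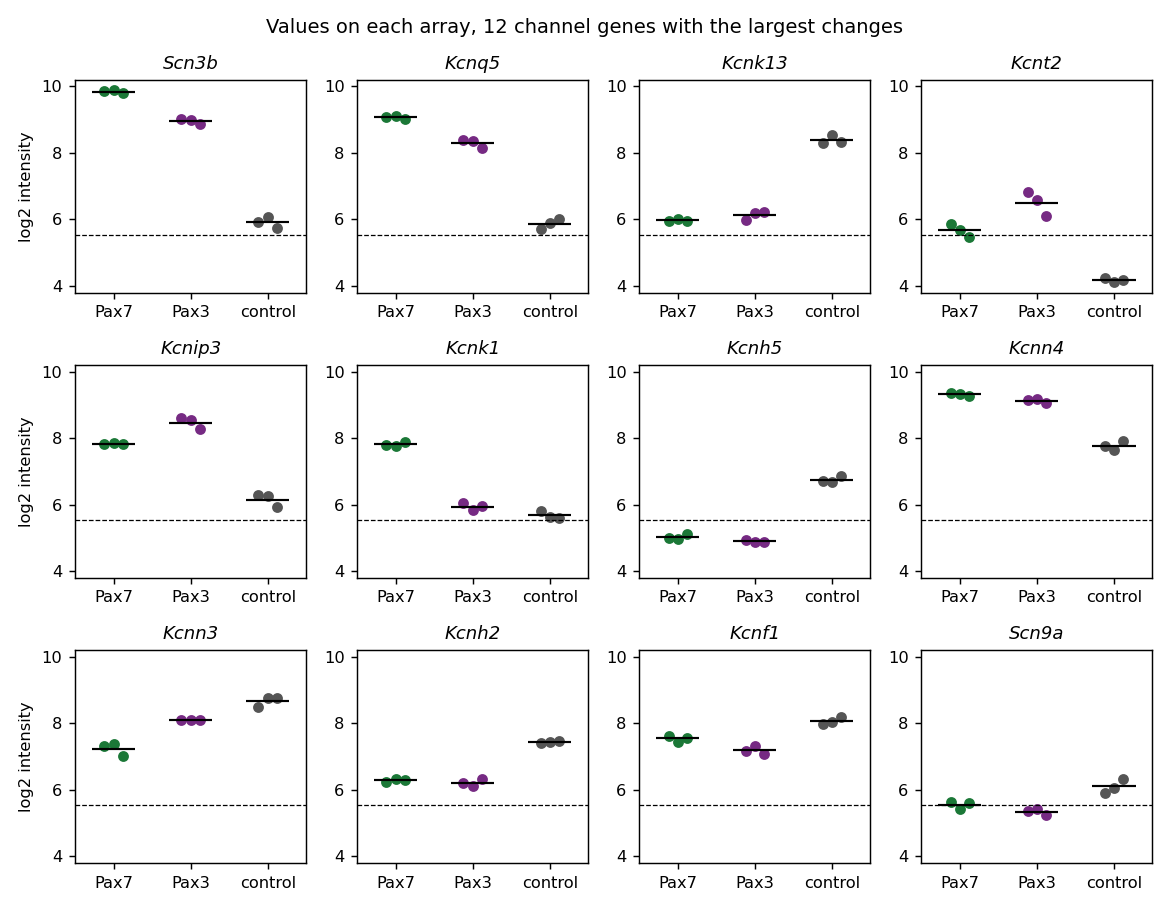
Log2 intensity on each array (points) and group mean (bar) in Pax7, Pax3 and control arrays for the 12 channel genes with the largest changes; the dashed line is the background level of 5.531. Kcnk1 is highest on Pax7 arrays, at 7.75 to 7.89, with Pax3 arrays just above control. In Scn3b, Kcnq5, Kcnip3 and Kcnn4 both Pax groups lie far above control, and in Kcnk13, Kcnh5 and Kcnh2 both lie below it.

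Among 35 pore-forming subunits of voltage-gated potassium channels, 8 were called higher and 4 lower for Pax7, and 3 higher and 5 lower for Pax3, against control. Their shares called, 34.3% and 22.9%, stand beside 43.2% and 39.6% of all genes. Kcnq5, a subunit of the slow M-type current that is expressed in brain and skeletal muscle, rose most. It stood at 9.08, 9.12 and 9.03 in Pax7 arrays, 8.39, 8.35 and 8.15 in Pax3 arrays, and 5.71, 5.89 and 6.03 in control arrays. The control arrays were thus just above the background level and both Pax groups well above it. Its log2 fold change was 3.20 ± 0.0829 for Pax7 against control, 2.42 ± 0.0829 for Pax3 against control and 0.78 ± 0.0829 for Pax7 against Pax3 (SE, n = 3 per group, limma adjusted p = 1.49e-10, 2.04e-09 and 7.09e-05). The related Kcnq1, a cardiac and epithelial subunit, did not pass (5.93 in Pax7, 5.90 in Pax3 and 5.87 in control arrays), and Kcnq3, the usual partner of M-type channels in neurons, was near background.

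Both Kcnh5 and Kcnh2, genes of the ether-a-go-go family, fell. Kcnh5 stood at 5.01, 4.96 and 5.12 in Pax7 arrays, 4.93, 4.86 and 4.89 in Pax3 arrays, and 6.71, 6.67 and 6.86 in control arrays. Kcnh2, whose human counterpart carries the rapid repolarising current of the heart, stood at 6.23, 6.31 and 6.29 in Pax7 arrays, 6.20, 6.10 and 6.33 in Pax3 arrays, and 7.39, 7.45 and 7.47 in control arrays. Kcnh5 was under the background level on all 6 Pax arrays, and neither gene's Pax arrays overlapped with control arrays. The log2 fold change of Kcnh5 was -1.72 ± 0.0594 for Pax7 and -1.86 ± 0.0594 for Pax3, and that of Kcnh2 -1.16 ± 0.0585 and -1.23 ± 0.0585, against control (SE, n = 3 per group, limma adjusted p at most 2.85e-08). For Kcnh5 these differences are of the measured values and include signal under the background level. Neither gene differed past the threshold between Pax7 and Pax3 arrays (0.14 ± 0.0594 for Kcnh5 and 0.07 ± 0.0585 for Kcnh2, limma adjusted p = 0.17 and 0.533). Of the other members of this family measured, Kcnh4 was called higher in Pax7 arrays (0.16, limma adjusted p = 0.0237), Kcnh7 lay near background and was called lower in Pax3 arrays (-0.15, limma adjusted p = 0.0343), and Kcnh1, Kcnh3 and Kcnh8 passed in none of the 3 comparisons.

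Kcnf1 is an electrically silent subunit that alters channels of the Kcnb family. It stood at 7.62, 7.44 and 7.57 in Pax7 arrays, 7.18, 7.32 and 7.06 in Pax3 arrays, and 7.96, 8.02 and 8.19 in control arrays. Pax3 arrays were lowest and control arrays highest, with no overlap. The log2 fold change was -0.52 ± 0.0804 for Pax7 and -0.87 ± 0.0804 for Pax3 against control (SE, n = 3 per group, limma adjusted p = 0.000292 and 5.57e-06). For Pax7 against Pax3 it was 0.36 ± 0.0804 (limma adjusted p = 0.0108), a call that ended without Pax7 replicate 1 (limma adjusted p = 0.0516). Its partner Kcnb2 was near background.

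Kcnc1 and Kcnc2 are fast-deactivating channels of rapidly firing neurons and changed in opposite directions. Kcnc1 stood at 5.99, 6.05 and 6.01 in Pax7 arrays, at 6.31 in all 3 Pax3 arrays, and at 6.79, 6.57 and 6.85 in control arrays. The groups did not overlap, and Pax7 arrays were lowest. Its log2 fold change was -0.72 ± 0.0651 for Pax7 and -0.42 ± 0.0651 for Pax3 against control and -0.30 ± 0.0651 for Pax7 against Pax3 (SE, n = 3 per group, limma adjusted p = 3.85e-06, 0.000307 and 0.00917). Kcnc2, at 5.42, 5.45 and 5.49 in Pax7 arrays, 5.53, 5.68 and 5.49 in Pax3 arrays, and 5.35, 5.10 and 5.18 in control arrays, was close to the background level throughout, with all 6 Pax arrays above the control arrays. It was called higher in Pax3 arrays (0.36 ± 0.0691, limma adjusted p = 0.00146) and in Pax7 arrays (0.25 ± 0.0691, limma adjusted p = 0.0136), the last of which ended without Pax7 replicate 3 or control replicate 2 (limma adjusted p = 0.0511 and 0.0618).

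Kcna3, a channel best known from T lymphocytes, and Kcnd1, an A-type channel gene on the X chromosome, rose by less. Kcna3 stood at 7.78, 7.62 and 7.75 in Pax7 arrays, 7.62, 7.55 and 7.61 in Pax3 arrays, and 7.30, 7.14 and 7.28 in control arrays. All 6 Pax arrays were above the control arrays, and the Pax7 and Pax3 arrays overlapped. The log2 fold change was 0.48 ± 0.0577 for Pax7 and 0.36 ± 0.0577 for Pax3 against control (SE, n = 3 per group, limma adjusted p = 4.11e-05 and 0.000448). Kcnd1 stood at 6.32, 6.25 and 6.01 in Pax7 arrays, 5.79, 5.81 and 5.90 in Pax3 arrays, and 5.70, 5.56 and 5.66 in control arrays. The 3 groups did not overlap, and the Pax7 arrays were highest. The log2 fold change was 0.55 ± 0.0758 for Pax7 against control, 0.19 ± 0.0758 for Pax3 against control and 0.36 ± 0.0758 for Pax7 against Pax3 (SE, n = 3 per group, limma adjusted p = 0.000114, 0.0733 and 0.00714). Kcne1l, the other channel gene on the X chromosome, did not pass (6.09 in Pax7, 6.06 in Pax3 and 6.04 in control arrays).

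The 13 accessory subunits of voltage-gated potassium channels gave 1 rise, 2 falls and 10 genes not past in each comparison against control. The share called, 23.1%, was below that of all genes, but 9 of the 13 were near background. The rise was in Kcnip3, a calcium-binding protein that joins A-type channels and also acts as a transcriptional repressor (DREAM). It stood at 7.81, 7.85 and 7.82 in Pax7 arrays, 8.59, 8.53 and 8.27 in Pax3 arrays, and 6.29, 6.26 and 5.91 in control arrays. Pax3 arrays were the highest, unlike for Scn3b and Kcnq5. In log2 fold change this was 1.68 ± 0.103 for Pax7 against control, 2.31 ± 0.103 for Pax3 against control and -0.64 ± 0.103 for Pax7 against Pax3 (SE, n = 3 per group, limma adjusted p = 1.5e-07, 1.57e-08 and 0.00137). The other members of the Kcnip family, Kcnip1, Kcnip2 and Kcnip4, were near background, as was the A-type pore subunit Kcnd2. Of the other Kcnd genes, Kcnd1 was above the background level, as described before. Kcnd3 was close to it, at 5.66 in Pax7, 5.55 in Pax3 and 5.58 in control arrays.

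The 2 falls were in the cytoplasmic beta subunits Kcnab2 and Kcnab3. Kcnab2 stood at 6.46, 6.55 and 6.45 in Pax7 arrays, at 6.67 in all 3 Pax3 arrays, and at 6.81, 6.91 and 6.76 in control arrays. Its log2 fold change was -0.34 ± 0.0498 for Pax7 and -0.16 ± 0.0498 for Pax3 against control and -0.18 ± 0.0498 for Pax7 against Pax3 (SE, n = 3 per group, limma adjusted p = 0.00018, 0.0258 and 0.0294). The groups stood in the order Pax7, Pax3, control from low to high, with small steps. The Pax3 call ended without Pax3 replicate 1 or 2 or control replicate 2 (limma adjusted p = 0.0606, 0.0521 and 0.108). The call between the Pax groups ended without Pax7 replicate 1 or 3 or Pax3 replicate 1 or 2 (limma adjusted p = 0.106, 0.11, 0.0786 and 0.0655). Kcnab3 was at -0.26 for Pax7 and -0.29 for Pax3 against control (limma adjusted p = 0.0174 and 0.0101).

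Inward rectifiers let potassium in more easily than out and hold the resting potential of muscle fibres, and 9 of 15 were near background. Kcnj4 stood at 6.65, 6.73 and 6.78 in Pax7 arrays, 6.35, 6.57 and 6.53 in Pax3 arrays, and 6.18, 6.16 and 6.19 in control arrays. Both Pax groups were above all control arrays, by 0.54 ± 0.0595 for Pax7 and 0.30 ± 0.0595 for Pax3 (SE, n = 3 per group, limma adjusted p = 1.82e-05 and 0.00162). For Pax7 against Pax3 the log2 fold change was 0.24 ± 0.0595 (limma adjusted p = 0.0183), a call that ended without Pax7 replicate 2 or 3 or Pax3 replicate 1 (limma adjusted p = 0.0639, 0.0814 and 0.0549). Kcnj12 was called higher in both Pax groups (0.16 and 0.19 for Pax7 and Pax3, limma adjusted p = 0.0491 and 0.0231). Kcnj11 and Kcnj8, the pores of ATP-sensitive channels, did not pass in any comparison, with Kcnj11 at 6.55 in Pax7, 6.38 in Pax3 and 6.58 in control arrays. Abcc9, the sulfonylurea receptor that joins such pores in muscle, was lower by 0.59 and 0.68 log2 units in Pax7 and Pax3 arrays (limma adjusted p = 2.74e-05 and 1.06e-05).

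Tandem-pore-domain channels carry the background leak of potassium, and 11 of 14 stood above the background level, and 4 (28.6%) were called in each comparison against control, a share below that of all genes. Kcnk13, a channel blocked by halothane, stood at 5.96, 6.01 and 5.97 in Pax7 arrays, 5.99, 6.19 and 6.23 in Pax3 arrays, and 8.29, 8.53 and 8.32 in control arrays. All control arrays were over 2 log2 units above every Pax array. On the log2 scale the change was -2.40 ± 0.0756 for Pax7 and -2.24 ± 0.0756 for Pax3 against control (SE, n = 3 per group, limma adjusted p = 6.2e-10 and 1.87e-09). Between the Pax groups it was -0.16 ± 0.0756 and did not pass (limma adjusted p = 0.213).

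Kcnk1, a weakly inward-rectifying member of the same class, separated the Pax groups most. It stood at 7.80, 7.75 and 7.89 in Pax7 arrays, 6.04, 5.82 and 5.95 in Pax3 arrays, and 5.82, 5.62 and 5.61 in control arrays. The Pax3 and control arrays lay close together, near the background level. As a log2 fold change, it was 2.13 ± 0.072 for Pax7 against control and 1.87 ± 0.072 for Pax7 against Pax3 (SE, n = 3 per group, limma adjusted p = 1.09e-09 and 4.36e-08). For Pax3 against control it was 0.26 ± 0.072 (limma adjusted p = 0.0148), and this call ended without Pax3 replicate 1 or control replicate 2 or 3 (limma adjusted p = 0.0658, 0.062 and 0.062). Kcnk5, an acid-sensitive channel, stood at 7.19, 7.01 and 7.07 in Pax7 arrays, 7.10, 7.36 and 7.08 in Pax3 arrays, and 6.80, 6.86 and 6.92 in control arrays. The Pax7 and Pax3 arrays overlapped, and all lay above the control arrays. It was higher by 0.32 ± 0.076 in Pax3 arrays (limma adjusted p = 0.0056) and by 0.23 ± 0.076 in Pax7 arrays (limma adjusted p = 0.0301), the last of which ended without Pax7 replicate 1 or 3 or control replicate 1 or 2 (limma adjusted p = 0.119, 0.061, 0.105 and 0.0718). Kcnk2, a stretch-sensitive channel, was called higher in both (0.15 and 0.17 for Pax7 and Pax3), and Kcnk3, Kcnk4, Kcnk6, Kcnk7, Kcnk12, Kcnk15 and Kcnk16 passed in none of the 3 comparisons.

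Channels opened by calcium or sodium inside the cell changed in both directions. Kcnn4, the intermediate-conductance calcium-activated channel known from lymphocytes and other dividing cells, stood at 9.36, 9.32 and 9.27 in Pax7 arrays, 9.15, 9.16 and 9.06 in Pax3 arrays, and 7.75, 7.64 and 7.90 in control arrays. Every group was well above background, and both Pax groups were above control. Its log2 fold change was 1.55 ± 0.0643 for Pax7 and 1.36 ± 0.0643 for Pax3 against control (SE, n = 3 per group, limma adjusted p = 5.55e-09 and 2.5e-08). The difference of 0.19 ± 0.0643 between Pax7 and Pax3 did not pass (limma adjusted p = 0.0712).

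Kcnn3, a small-conductance channel that reappears in denervated muscle, fell. It stood at 7.31, 7.37 and 7.02 in Pax7 arrays, at 8.09 in all 3 Pax3 arrays, and at 8.49, 8.76 and 8.74 in control arrays. The groups did not overlap, and Pax7 arrays were lowest. In log2 fold change this was -1.43 ± 0.0934 for Pax7 and -0.57 ± 0.0934 for Pax3 against control and -0.86 ± 0.0934 for Pax7 against Pax3 (SE, n = 3 per group, limma adjusted p = 2.46e-07, 0.000471 and 8.25e-05). Of its relatives, Kcnn1 was at -0.16 in Pax7 against control (limma adjusted p = 0.0273) and Kcnn2 was near background.

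Kcnt2, a sodium-activated potassium channel, lay under the background level in control arrays and rose in both Pax groups. It stood at 5.86, 5.68 and 5.49 in Pax7 arrays, 6.81, 6.59 and 6.11 in Pax3 arrays, and 4.23, 4.12 and 4.19 in control arrays. Pax3 arrays were highest and also the most spread. On the log2 scale the change was 1.5 ± 0.152 for Pax7 against control, 2.32 ± 0.152 for Pax3 against control and -0.83 ± 0.152 for Pax7 against Pax3 (SE, n = 3 per group, limma adjusted p = 9.87e-06, 3.39e-07 and 0.00315). These differences include control values under the background level. Against that level itself, the group mean of Kcnt2 was at least 1.11-fold higher in Pax7 and 1.96-fold higher in Pax3 arrays. The Pax7 array at 5.49 lay under the level, so the Pax7 bound does not hold on every array. Its relative Kcnt1 did not pass (5.89 in Pax7, 5.81 in Pax3 and 5.85 in control arrays). Kcnmb4, an accessory subunit of large-conductance channels, stood at 6.42, 6.41 and 6.35 in Pax7 arrays, 6.18, 6.20 and 6.28 in Pax3 arrays, and 6.03, 5.60 and 5.78 in control arrays. The groups did not overlap. Kcnmb4 was higher by 0.59 ± 0.0888 in Pax7 and 0.42 ± 0.0888 in Pax3 arrays (SE, n = 3 per group, limma adjusted p = 0.00022 and 0.00286), while its pore Kcnma1 lay near background.

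Between Pax7 and Pax3 arrays 11 of the 103 genes passed (10.7%), 6 higher and 5 lower, against 16.9% of all genes tested (8.33% higher and 8.54% lower). The 6 genes higher in Pax7 arrays were Kcnk1, Scn3b, Kcnq5, Kcnd1, Kcnf1 and Kcnj4, and the 5 lower ones were Kcnn3, Kcnt2, Kcnip3, Kcnc1 and Kcnab2. Without Pax3 replicate 3 the split was 10 higher and 5 lower, and with array weights 11 higher and 5 lower. Kcnk1 alone reached 1 log2 unit (1 of 103, 0.971%, against 0.895% of all genes, 0.565% higher and 0.331% lower). Scn3b, Kcnq5, Kcnk1, Kcnt2 and Kcnip3 were each called higher than control in both Pax groups, for Kcnk1 by only 0.26 log2 units in Pax3 arrays. The Pax7 arrays were highest for Scn3b, Kcnq5 and Kcnk1, and the Pax3 arrays for Kcnt2 and Kcnip3. Of the genes described array by array, Scn9a (0.22 ± 0.0986), Kcnmb4 (0.17 ± 0.0888), Kcna3 (0.12 ± 0.0577), Kcnc2 (-0.11 ± 0.0691) and Kcnk5 (-0.09 ± 0.076) did not pass here, like Kcnk13, Kcnh5, Kcnn4 and Kcnh2. The difference for the 92 genes that did not pass lay between -0.16 and 0.22 log2 units. In 20 genes (19.4%) the arrays of the groups did not overlap, against 29.4% of all genes, and 5 genes (4.85%) passed treat, against 3.99%. Uty and Eif2s3y did not pass between Pax7 and Pax3 arrays (-0.08 and -0.04, limma adjusted p = 0.551 and 0.635), while Xist differed by -0.24 (limma adjusted p = 0.0262).

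**Figure D4:**
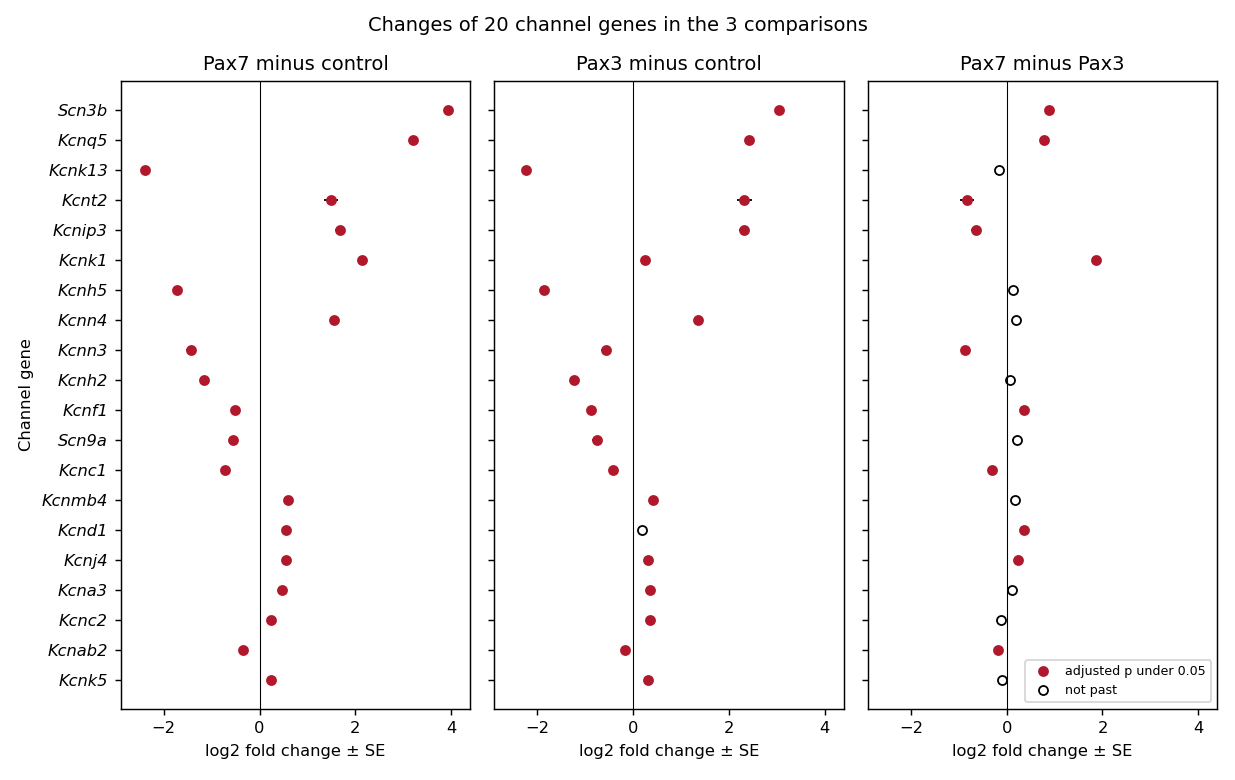
Log2 fold changes (points, bars are limma SEs) of 20 channel genes for Pax7 minus control, Pax3 minus control and Pax7 minus Pax3, with filled points where the adjusted p was under 0.05. Scn3b, Kcnq5 and Kcnk1 lie right of 0 in the Pax7 minus Pax3 panel, at 0.88, 0.78 and 1.87, and Kcnn3, Kcnt2 and Kcnip3 lie left of it, at -0.86, -0.83 and -0.64.

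The noncoding RNA Kcnmb4os2, named for the strand opposite Kcnmb4, was called higher in both Pax groups (0.32 for Pax7 and 0.27 for Pax3 against control, limma adjusted p = 0.0171 and 0.0374), and Kcnmb4os1 in Pax7 arrays (0.15, limma adjusted p = 0.0469). Whether their probe sets share signal with Kcnmb4 was not tested. Of the 56 genes above the background level, 30 (53.6%) passed in at least 1 comparison with groups that did not overlap, against 63.9% of the 13966 genes above that level. The 10 not described array by array (Kcna7, Kcnab3, Kcng1, Kcng2, Kcnh4, Kcnj12, Kcnk2, Kcnn1, Kcnmb4os1 and Kcnmb4os2) were between -0.29 and 0.32 log2 units wherever they were called. The other 26 passed in none of the 3 comparisons. Of these, the 5 with the highest mean over all 9 arrays were Kcnd3os, Kcnmb3, Kcnk15, Kcnk12 and Kcnk3. Kcnd3os stood at 7.49 ± 0.0536, Kcnmb3 at 6.82 ± 0.0847, Kcnk15 at 6.74 ± 0.0705 and Kcnk3 at 6.52 ± 0.0939 in Pax7 arrays (SD, n = 3). In Pax3 arrays they stood at 7.47 ± 0.246, 6.72 ± 0.213, 6.77 ± 0.216 and 6.51 ± 0.272, and in control arrays they stood at 7.25 ± 0.108, 6.59 ± 0.0978, 6.52 ± 0.0656 and 6.49 ± 0.061. Kcnk12 gave the same value of 6.55 on all 3 Pax7 arrays, 6.63 ± 0.161 in Pax3 arrays and 6.51 ± 0.0304 in control arrays. Genes near background that passed were Scn2b, Scn4b, Scn7a, Kcnma1, Kcnj3 and Kcnh7, with changes between -0.30 and 0.27 log2 units. A miss of the threshold does not show that a gene was equal in the groups: the SE of a difference between groups ran from 0.0364 to 0.152.

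Of 28 measured genes of calcium, pacemaker and sodium leak channels, 5 were higher, 6 lower and 17 not past for Pax7 against control. For Pax3 against control the counts were 2, 4 and 22, and for Pax7 against Pax3 they were 3, 6 and 19. Of all genes tested, 43.2% were called for Pax7 against control, 39.6% for Pax3 against control and 16.9% for Pax7 against Pax3. The largest changes were in Cacna1s, the voltage sensor of skeletal muscle, at -2.40 for Pax7 and -1.73 for Pax3 against control, and in the gamma subunit Cacng7, at -2.39 and -1.99. Next for Pax7 were Cacna2d1 (-1.30) and the muscle gamma subunit Cacng1 (-1.04), and for Pax3 Cacna2d1 (-0.77) and Cacnb1 (0.49). For Pax7 against Pax3 they were Cacng1 (-0.86), Cacna1c (0.67), Cacna1s (-0.67) and Cacnb1 (-0.57). Each of these changes had a limma adjusted p of at most 0.00228. The list median was 0.028 for Pax7, 0.055 for Pax3 and 0 for Pax7 against Pax3, beside 0.0274, 0.0157 and 0.0067 over all genes.

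Measured were 31 partners that bind, place or regulate potassium and sodium channels. For Pax7 against control 5 were higher, 9 lower and 17 not past. For Pax3 against control the counts were 6, 9 and 16, and for Pax7 against Pax3 they were 3, 6 and 22. The shares of all genes called were 43.2%, 39.6% and 16.9% in the same order. The anchoring protein Akap6 fell most in both comparisons against control (-2.35 for Pax7 and -1.73 for Pax3), followed for Pax7 by the syntrophin Sntb1 (-1.81), the kinase Sgk1 (-1.09) and the fibroblast growth factor homologue Fgf11, which binds sodium channels (-0.94). For Pax3 the next were Ank2 (0.99), an ankyrin that anchors channels, Sgk1 (-0.95) and Abcc9 (-0.68). For Pax7 against Pax3 the largest were Sntb1 (-1.17), Lrrc26 (0.62), an accessory protein of large-conductance potassium channels, Akap6 (-0.62) and Fgf13 (-0.58). Each of these had a limma adjusted p of at most 0.00479. The list median was 0.031, -0.016 and -0.007 in the 3 comparisons.

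Markers of other cell types and states moved beside the channel genes, and their part in the changes was not tested. All 8 markers of differentiated muscle fibres were lower in both Pax groups, with summed linear intensities of 3139 to 3714 in Pax7 and 6083 to 6207 in Pax3 arrays, against 13591 to 15249 in control arrays; Myh4 was near background. The 8 neuron markers summed to 1063 to 1106 in Pax7 and 956 to 999 in Pax3 arrays, against 450 to 469 in control arrays. Stmn2 alone made up 654 to 693 of the sum in Pax7 arrays, 580 to 583 in Pax3 arrays and 80 to 82 in control arrays, and the other 7 summed to 409 to 412, 375 to 417 and 369 to 387. Of the 8, 4 were called higher for Pax7 and 2 for Pax3, Stmn2 being at 9.38, 9.18 and 6.34 in Pax7, Pax3 and control arrays. Snap25 and Syt1 were near background. The 4 macrophage and leukocyte markers summed to 723 to 764, 489 to 496 and 215 to 250 in Pax7, Pax3 and control arrays, through Cd68 alone, while Ptprc, Adgre1 and Csf1r were near background. Of the 4 smooth muscle markers 3 were lower in both Pax groups. Of Schwann cell and melanocyte markers 0 of 4 passed, and of the endothelial markers Cdh5 and Tek were higher in Pax7 arrays and Tek in Pax3 arrays. Of the fibroblast markers Pdgfra was higher in both, and Dcn was near background. Beside these counts, 21.6% of all genes tested were called higher and 21.5% lower for Pax7 against control. For Pax3 against control the shares were 19.8% and 19.7%.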

How the data were processed

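Biotin-labelled total RNA of 9 samples was measured on Affymetrix arrays. The authors deposited log2 intensities per probe set after RMA; RMA and R 2.10.0 are named in the submitters' processing notes. No genome build or filter is stated in the labels. Values ran from 1.933 to 13.23 over 25668 probe sets; 20777 carried 1 symbol in the platform annotation, 232 several and 4659 none. The identifiers of 20696 matched the RefSeq gene table (GRCm38.p6), with 0 symbols changed; all 103 channel genes matched. Among these, 5 genes had more than 1 probe set, and 1 further probe set shared by Scn3a and Scn1a was left out. Near-identical relatives can share signal.

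From the deposited values, limma 3.58.1 in R 4.3.3 fitted a mean per group over 9 arrays (residual df 6, prior df 4.37, prior SD 0.0677). The fit was tested on simulated data, with no outcome given here. The members and lists were chosen with earlier results of these data known. Genes with values for every array were the 20 with the largest change among 30 channel genes that were above background and passed in at least 1 comparison with groups not overlapping. Of calcium, pacemaker and leak channels and of partners, up to 4 called genes per comparison are named; Abcc9 and marker genes outside these rules were named for their role. Deviations of same-numbered arrays from their group means had r over all genes from -0.026 to 0.225, over 0.1 in 3 of 9 pairs. Deviations of arrays with different numbers were not compared, so these values cannot decide on pairing. The main fit used no pairing. Alternatives were other priors, a replicate block, filters, normalisations, probe set choices, a treat test, array weights, separate fits, left-out arrays and other background levels. Depth does not apply to arrays, and their number limits the precision.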

Additional observations from a re-analysis of the deposited data

Results flagged for a closer look

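Kcnma1 had a second probe set, dimmer than the one used for the gene, and its signal was above that of control arrays in both Pax groups. Its log2 fold change was 0.2859 in Pax7 arrays (3.87 against 3.59 in control arrays, limma adjusted p = 0.00999) and 0.355 in Pax3 arrays (3.94 against 3.59, limma adjusted p = 0.00307). Both probe sets of the gene lay under the background level of 5.531 in every group.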

How the results depend on the processing

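The count of channel genes called kept within 1.5 times of 32 (Pax7 against control), 28 (Pax3 against control) and 11 (Pax7 against Pax3) except under a pair of settings. With the lowest 50% of genes by mean intensity removed, which left 10 channel genes, 10, 8 and 6 passed, and in a treat test against a fold of 1.2 the counts were 17, 11 and 5. Leaving out single arrays gave 22 to 29, 21 to 32 and 9 to 15 genes, and moved the higher count for Pax7 against control (21) to 12 without control replicate 2, and that for Pax7 against Pax3 (6) to 10 without Pax3 replicate 3. The replicate block gave 35, 31 and 11 and changed no call of the 20 genes described array by array. Between 28 (90th percentile) and 72 genes (99th percentile) were near background, against 47, and 47 to 48 with an array left out. Of 50 calls of these 20 genes, 0 reversed and 33 held in every alternative that could test them. The treat test ended 17, and leaving out an array ended 7 of them in at least 1 fit. Other settings ended 4 in all: Kcnab2 between Pax7 and Pax3 with a trend or with centred arrays, Kcnj4 between Pax7 and Pax3 when those groups alone were fitted, and Kcnc2 between Pax7 and control after a second quantile normalisation. The number of arrays, 3 per group, limits the precision, and signals near background limit 47 genes.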

Other observations

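Exactly equal values on different arrays were common. In 57 of 103 channel genes (55.3%) at least 2 of the 9 arrays held the same value to every deposited decimal, against 42.9% of all genes tested. The share was 76.6% among the 47 channel genes near background (36 genes) and 37.5% among the other 56 (21 genes). In 13 cases all 3 arrays of a group were equal, 3 of them among the genes described array by array: Kcnn3, Kcnc1 and Kcnab2 on the Pax3 arrays. An SD of 0 there is a property of the deposited values and understates the spread of that group.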
